A study of Mus musculus with 18 samples.

Results

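Livers of mice that received carbon tetrachloride (CCl4) together with Pien Tze Huang were compared, gene by gene, with livers of mice that received corn oil alone, to see what still differed from the corn oil liver after 12 weeks. All genes with enough counts across the series entered the comparison, which left 21914 of the 54752 genes in the table. Control mice received intraperitoneal corn oil for 12 weeks, 2 times weekly at 10 µl for each g of mouse, with double distilled water by mouth. Cirrhosis-PTH mice were injected on the same schedule and volume with 10% CCl4 in corn oil, and were given Pien Tze Huang (PTH, a traditional Chinese medicine, not parathyroid hormone) orally once daily, 0.25 mg for each g of mouse. The remaining group, Cirrhosis, received the same CCl4 with water, and its values are given beside those of the main comparison. All mice were male C57BL/6, 6 weeks old at purchase, and each group had 6 libraries, 1 per mouse. No group received corn oil with PTH, so what CCl4 left behind and what PTH itself did cannot be told apart in the difference between Cirrhosis-PTH and Control.

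CCl4 is turned into a toxic radical by cytochrome P450 enzymes, mainly in the hepatocytes around the central vein, and those hepatocytes die with each dose. Dying hepatocytes release signals that draw in macrophages and turn stellate cells, the vitamin A-storing pericytes of the sinusoid, into matrix-producing myofibroblasts. With repeated doses the collagen and elastic fibres join into scars that divide the liver into nodules, while surviving hepatocytes lose part of their specialised expression.

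The 12 libraries compared held 62.5 M to 112 M counts each. Ribosomal RNA loci took up 47.8 ± 7.29% of all counts in Control and 41.1 ± 6.31% in Cirrhosis-PTH (SD, n = 6, two-sided exact permutation p = 0.115). More genes reached 10 counts in Cirrhosis-PTH, 20946 ± 696, than in Control, 19238 ± 1014 (exact permutation adjusted p = 0.0216), and with libraries thinned to equal depth the values were 18490 ± 420.2 and 17633 ± 255 (exact permutation adjusted p = 0.0043). On the first principal component of the 12 libraries, with 26.5% of the variance, Cirrhosis-PTH libraries 3 and 6 lay farther from Control, at 84.8 and 73.9, than the other 4, at 29.2 to 43.5. On the second, with 13.1%, Control libraries 7 and 8 lay apart at -34.1 and -96.9. Those 2 Control libraries also had the highest summed levels of 22 acute phase genes and of 16 neutrophil genes. The acute phase sums were 10764 to 21624 CPM over Control and 10351 to 15164 CPM over Cirrhosis-PTH. The neutrophil sums were 4.38 to 122 CPM over Control and 10.2 to 32.0 CPM over Cirrhosis-PTH. CPM are counts relative to library totals, after each total was multiplied by its TMM scaling factor. These factors were lowest in Control libraries 7 and 8, at 0.719 and 0.578, and reached 1.23 in Cirrhosis-PTH library 6. Hepatocyte genes were abundant in all libraries, with Alb, albumin, at 26610.5 to 41270.3 (median 36680.3) CPM in Control and 26479.9 to 30886 (median 29551) CPM in Cirrhosis-PTH. In bulk liver, fewer cells of a type and less RNA per cell cannot be told apart.

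A total of 1932 genes differed between Cirrhosis-PTH and Control at an adjusted p under 0.05 in edgeR's quasi-likelihood test, 8.82% of the genes tested. Of these, 1389 were higher in Cirrhosis-PTH (6.34%) and 543 were lower (2.48%). At least 2-fold changes were found in 747 genes higher (3.41%) and 158 lower (0.721%). The 6 libraries of each group did not overlap for 979 genes (4.47%), among them 619 called higher and 232 called lower. In the Cirrhosis livers, 25.5% of the genes were called higher and 25.0% lower than in the same Control libraries. The called genes had a median log2 difference of 1.08 (higher) and -0.53 (lower) in Cirrhosis-PTH, and the same genes had medians of 1.76 and -0.96 in Cirrhosis. Over all genes tested the median was 0.01 in Cirrhosis-PTH and 0.02 in Cirrhosis. Without Cirrhosis-PTH libraries 3 and 6 the number of genes called was 847, and it was 1293 without library 3 and 1373 without library 6 alone. Without Control libraries 7 and 8 it was 1963, with 1594 higher and 369 lower. A fit of the 12 libraries alone called 1583 genes (1025 higher, 558 lower), 1410 of them among the 1932. DESeq2 called 2782 (1969 higher, 813 lower).

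**Figure D1:**
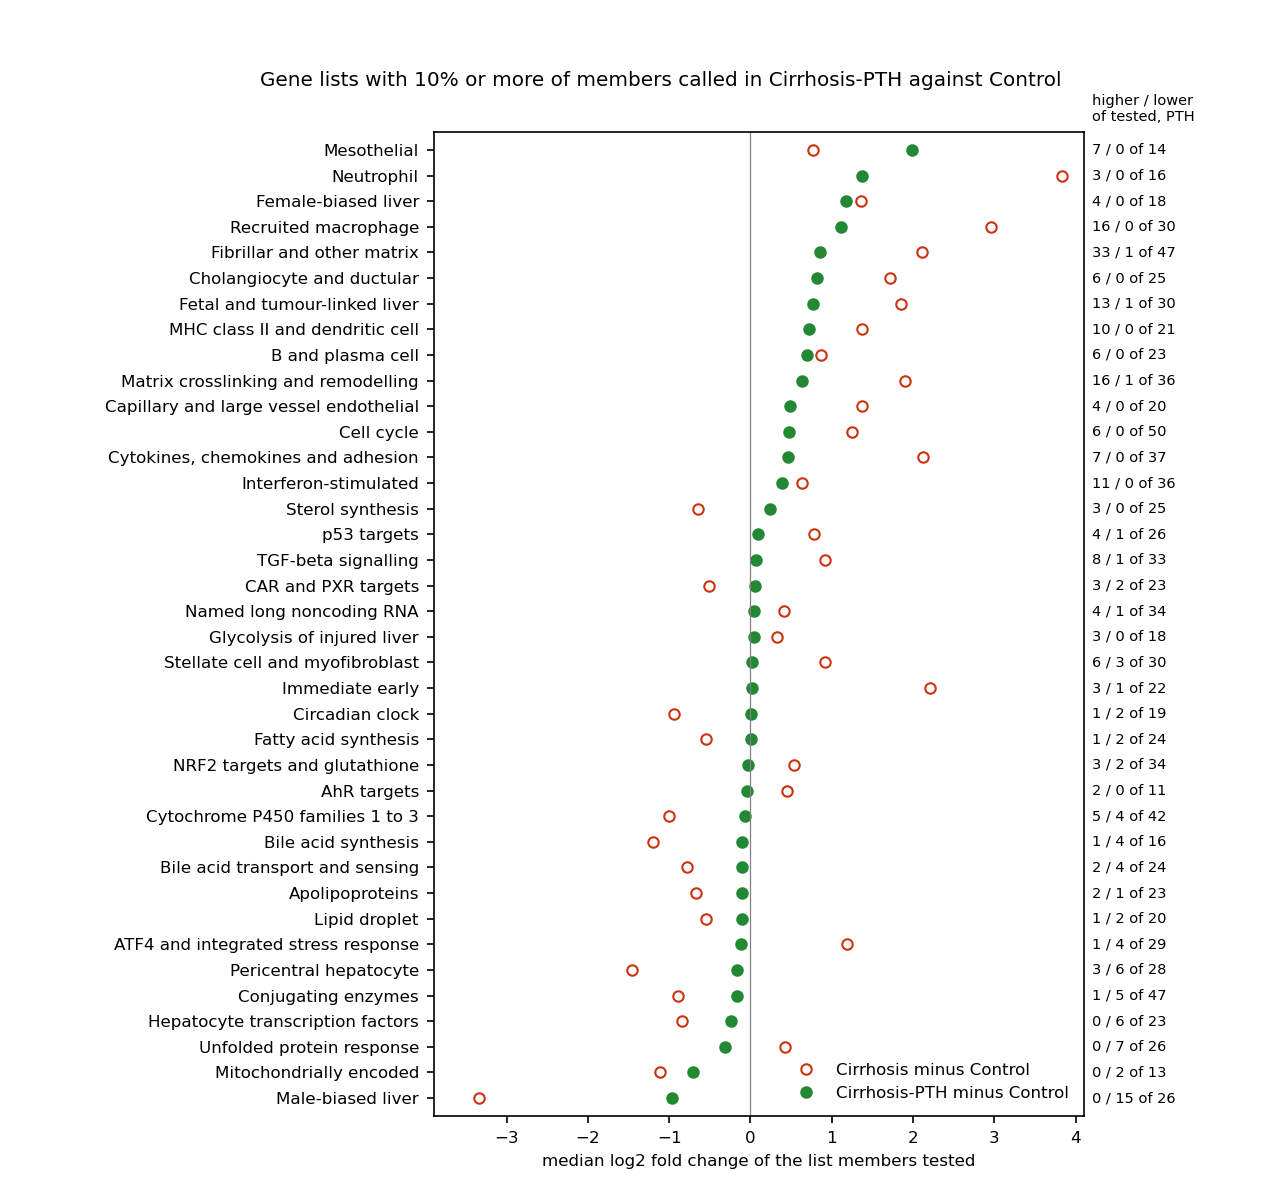
Median log2 fold change against Control (x axis) of the tested members of 38 gene lists, for Cirrhosis-PTH (filled) and Cirrhosis (open), which share the Control libraries, with members called higher and lower in Cirrhosis-PTH at the right. Of all 57 lists, only those with at least 10 tested members and 10% or more of them called in Cirrhosis-PTH are drawn, so lists with few calls are absent. Mesothelial, neutrophil, female-biased, macrophage and matrix lists lie highest in Cirrhosis-PTH and male-biased liver genes lowest, at a median of -0.97.

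Most genes of the scar matrix remained above the corn oil level. Of 47 fibrillar and other matrix genes tested, 33 were higher and 1 was lower, with a median log2 difference of 0.86, against 0.01 over all genes and backgrounds of 6.34% higher and 2.48% lower. In Cirrhosis, 41 of the 47 were higher and 3 lower, with a median of 2.1. The list's summed level, which the most abundant members set, did not differ in the same way: it was 3364 to 3922 CPM (median 3710.2) in Control and 3519 to 4244 CPM (median 3635) in Cirrhosis-PTH, ranges that overlapped, and 4522 to 5262 CPM in Cirrhosis. Fbn2, a fibrillin of elastic microfibrils, lay at 0 to 0.242 (median 0.0338) CPM in Control and 1.57 to 9.92 (median 2.56) in Cirrhosis-PTH, a log2 difference of 6.23 ± 0.70 (SE, adjusted p = 4.4e-05), and it was 7.12 without Control library 7. Col1a1, the alpha 1 chain of type I collagen, lay at 4.15 to 38.8 (median 8.96) CPM in Control, 24.8 to 136 (median 42.5) in Cirrhosis-PTH and 164 to 290.3 (median 201) in Cirrhosis. Control library 7, at 38.8 CPM, was the 1 Control library inside the Cirrhosis-PTH range. The difference from Control was 2.19 ± 0.51 (SE, adjusted p = 0.014), and 2.89 without that library. Col3a1, the chain of type III collagen, changed by 1.4 ± 0.33 (SE, adjusted p = 0.013), and its groups also overlapped. The calls of Col1a1 and Col3a1 were lost in a fit of the 12 libraries alone and without Cirrhosis-PTH libraries 3 and 6. The 1 matrix gene lower was Ecm1, a secreted protein that holds latent TGF-beta in check in liver, at 46.2 to 62.8 (median 59.3) CPM in Control and 28.3 to 38.3 (median 33.6) in Cirrhosis-PTH, with no overlap (-0.76 ± 0.09 SE, adjusted p = 3.3e-05). Without Cirrhosis-PTH libraries 3 and 6, 21 of the 47 genes were called higher, and without Control libraries 7 and 8 it was 38.

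Enzymes that cut or crosslink the matrix were raised in part. Of 36 tested, 16 were higher and 1 was lower, with a median of 0.63, and 31 were higher in Cirrhosis (median 1.90). Adamts5, a protease that cleaves aggrecan and versican, lay at 2.38 to 3.38 (median 2.77) CPM in Control, 6.76 to 15.1 (median 8.09) in Cirrhosis-PTH and 6.77 to 10.6 (median 7.31) in Cirrhosis. The difference from Control was 1.72 ± 0.17 (SE, adjusted p = 4.6e-06) in Cirrhosis-PTH and 1.51 in Cirrhosis. Adamts12, another secreted protease of that family, lay at 0.833 to 1.39 (median 1.19) CPM in Control and 2.23 to 5.54 (median 3.17) in Cirrhosis-PTH (1.61 ± 0.19 SE, adjusted p = 1.6e-05), with 14.7 to 19.6 (median 17.1) in Cirrhosis. Neither gene overlapped between Control and Cirrhosis-PTH. Mmp12, the macrophage elastase, rose by 3.39 ± 0.43 (SE, adjusted p = 0.00016), from a median of 0.606 to 6.82 CPM, and stood at 68.8 in Cirrhosis. Timp1, an inhibitor of these proteases and a common marker of active fibrosis, did not pass. It lay at 0 to 1.15 (median 0.0489) CPM in Control, 0.114 to 0.377 (median 0.245) in Cirrhosis-PTH and 2.47 to 8.54 (median 5.51) in Cirrhosis, a difference from Control of 0.29 ± 0.81 (SE, adjusted p = 0.88). Control library 7 decided that call: without it the Timp1 log2 fold change was 2.42 (adjusted p = 0.0116), and without Control libraries 7 and 8 it was 2.27 (adjusted p = 0.0196), both called higher. The member called lower was Mmp15, a membrane-bound metalloprotease (-0.47 ± 0.10, named after its value was seen).

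Of 33 genes of TGF-beta signalling, the main profibrotic pathway of the liver, 8 were higher and 1 lower, with a median of 0.07 (22 higher and 1 lower in Cirrhosis). Ltbp2, a matrix protein related to the binders of latent TGF-beta, lay at 0.595 to 3.06 (median 1.18) CPM in Control and 7.69 to 42.5 (median 12.4) in Cirrhosis-PTH, with no overlap (3.65 ± 0.48 SE, adjusted p = 0.00019). The ligand gene Tgfb2 lay at 0.335 to 1.26 (median 0.407) CPM in Control and 1.16 to 4.59 (median 2.31) in Cirrhosis-PTH, and overlapped through Control library 7 (2.15 ± 0.36 SE, adjusted p = 0.00078). The member called lower, named after its value was seen, was Inhbe, a hepatocyte activin subunit (-0.59 ± 0.16). Stellate cell and myofibroblast genes were divided. Of 30 tested, 6 were higher and 3 lower, with a median of 0.02, and 19 were higher in Cirrhosis (median 0.92). Pdgfrb, the PDGF receptor of stellate cells, lay at 9.14 to 12.3 (median 9.79) CPM in Control, 21 to 56.2 (median 27.3) in Cirrhosis-PTH and 52.4 to 64.2 (median 58.1) in Cirrhosis, with no overlap between Control and Cirrhosis-PTH (1.68 ± 0.19 SE, adjusted p = 3.8e-05). Acta2, the smooth muscle actin of contractile myofibroblasts, lay at 0.669 to 3.08 (median 1.39) CPM in Control, 0.347 to 2.35 (median 0.868) in Cirrhosis-PTH and 5.36 to 6.42 (median 5.93) in Cirrhosis. Its Control and Cirrhosis-PTH libraries overlapped over most of their range, and the difference was -0.43 ± 0.40 (SE, adjusted p = 0.58). Without Cirrhosis-PTH libraries 3 and 6 the Acta2 log2 fold change was -1.26 and called lower (adjusted p = 0.0440). The members called lower were Ecm1, Colec10, a collectin of stellate cells, and Angptl6 (-0.76, -0.75 and -0.94, the last 2 named after their values were seen).

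**Figure D2:**
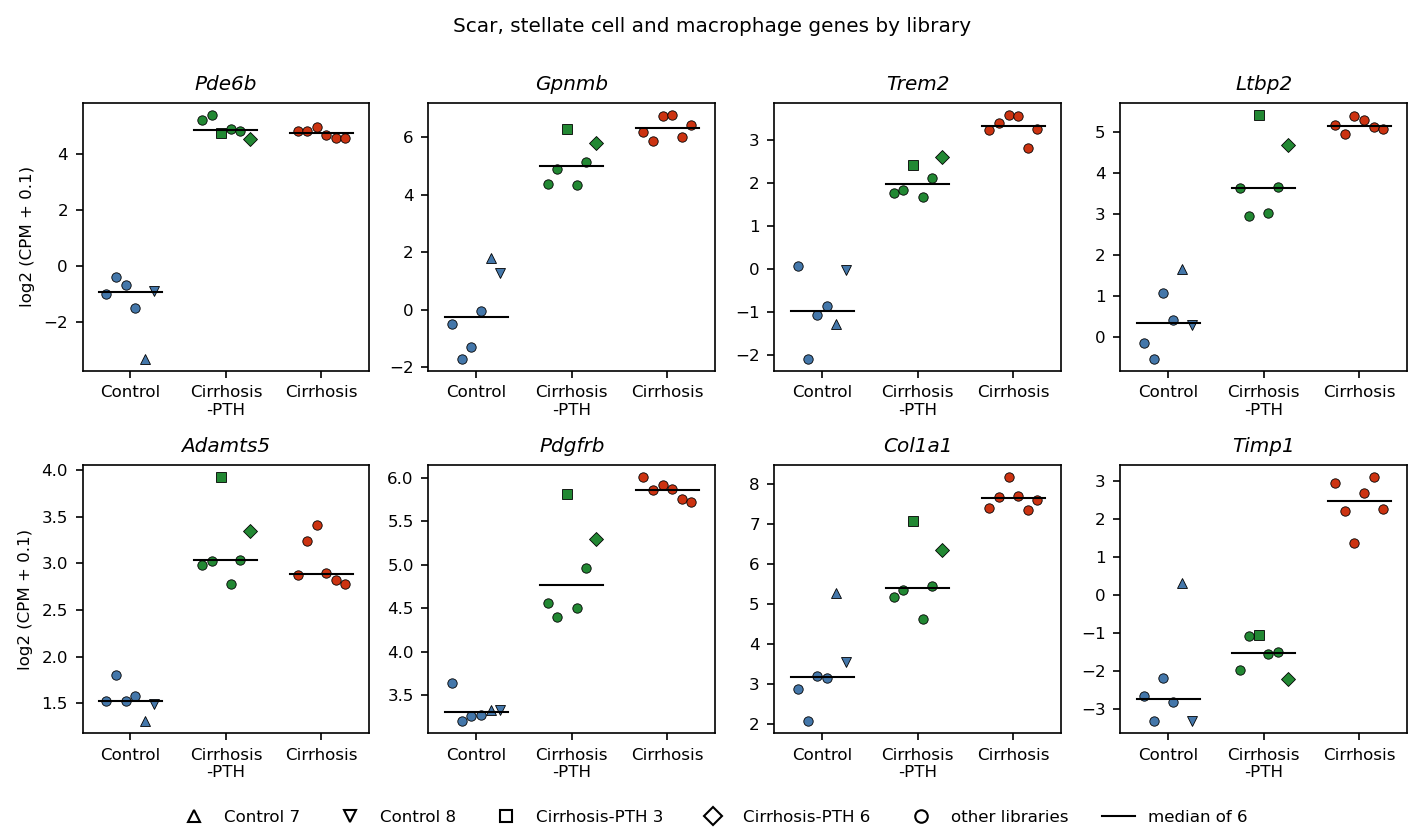
Level of 8 scar, stellate cell and macrophage genes, as log2 of CPM plus 0.1 (y axis), in each of the 18 libraries by group, with the median of 6 as a line. Cirrhosis-PTH lies apart from Control for Pde6b, Gpnmb, Trem2, Ltbp2, Adamts5 and Pdgfrb, overlaps it through Control 7 for Col1a1, and lies within its range for Timp1, and libraries 3 and 6 (square, diamond) are the highest Cirrhosis-PTH libraries for Ltbp2, Adamts5, Pdgfrb and Col1a1.

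Among well-expressed genes whose groups did not overlap (mean log2 CPM of 1 or more), Pde6b had the largest rise. It encodes a subunit of the rod photoreceptor phosphodiesterase (ENSMUSG00000029491, GRCm38 chromosome 5, 108388391 to 108432397). It lay at 0 to 0.655 (median 0.422) CPM in Control, 23.6 to 42.5 (median 29.3) in Cirrhosis-PTH and 24 to 31.5 (median 27) in Cirrhosis. The Cirrhosis-PTH libraries overlapped the Cirrhosis range and all lay far above Control. The difference from Control was 6.36 ± 0.32 (SE, adjusted p = 7.5e-09) in Cirrhosis-PTH and 6.14 ± 0.32 in Cirrhosis. Scube1, a secreted protein with EGF and CUB domains, lay at 0.0446 to 1.25 (median 0.498) CPM in Control and 3.83 to 12.3 (median 5.41) in Cirrhosis-PTH (3.63 ± 0.43 SE, adjusted p = 5.7e-05), against 11.1 to 15.4 (median 13.8) in Cirrhosis. Pkhd1l1, a large membrane protein related to fibrocystin, lay at 0.313 to 2.31 (median 0.527) CPM in Control and 4.31 to 12.7 (median 6.83) in Cirrhosis-PTH (3.11 ± 0.58 SE, adjusted p = 0.0028), and at 0.885 to 8.72 (median 2.53) in Cirrhosis. All 3 genes kept their call under every alternative run.

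Markers of recruited macrophages stood above Control, while few of those of the resident Kupffer cells were called. Of 30 recruited macrophage genes, 16 were higher and 0 lower, with a median of 1.11 (28 higher in Cirrhosis, median 2.96). The list's summed level was 122 to 242 CPM in Control, 268 to 522 CPM in Cirrhosis-PTH and 899.5 to 1286 CPM in Cirrhosis. Gpnmb, a lysosomal glycoprotein of scar-associated macrophages, lay at 0.208 to 3.41 (median 0.743) CPM in Control, 20.2 to 77.7 (median 32.3) in Cirrhosis-PTH and 58.1 to 109 (median 79.2) in Cirrhosis. The difference from Control was 5.06 ± 0.60 (SE, adjusted p = 9.2e-05), and 5.66 without Control library 7. Trem2, a lipid-sensing receptor of the same cells, lay at 0.134 to 0.943 (median 0.409) CPM in Control and 3.11 to 6.04 (median 3.85) in Cirrhosis-PTH (3.06 ± 0.32 SE, adjusted p = 1.0e-05). Cx3cr1, the fractalkine receptor of monocyte-derived cells, rose by 2.21 ± 0.23 (SE, adjusted p = 6.7e-06), and Lpl, lipoprotein lipase, by 1.53 ± 0.16 (SE, adjusted p = 9.9e-06). None of these 4 genes overlapped between the groups. Leaving out Cirrhosis-PTH libraries 3 and 6 gave 12 of the 30 higher, and leaving out Control libraries 7 and 8 gave 23. Of 23 Kupffer cell genes, 1 was higher and 1 lower (4.3% each, against 6.34% and 2.48% of all genes). Their median was -0.14, with 2 higher and 6 lower at an unadjusted p under 0.05. DESeq2 and the fit of the 12 libraries alone each called 4 lower, and with single libraries left out 0 to 4 were lower. Adgre1, which encodes F4/80, lay at 10.9 to 24.6 (median 14.1) CPM in Control and 12.3 to 19.2 (median 15.8) in Cirrhosis-PTH, a difference of 0.03 ± 0.18 (SE, adjusted p = 0.95) whose sign changed with single libraries left out. Clec4f, the lectin that marks Kupffer cells, lay at 55.2 to 72.4 (median 61.2) CPM in Control and 23.8 to 57.6 (median 43.6) in Cirrhosis-PTH and missed the threshold (-0.56 ± 0.17 SE, adjusted p = 0.051). It was lower and called in 5 alternatives, by DESeq2 (adjusted p = 0.0196), in the fit of the 12 libraries, with a stricter filter, and without Cirrhosis library 2 or Cirrhosis-PTH library 1. The 2 called members were C1qb, a complement chain (0.45 ± 0.12), and Timd4, a receptor for dying cells kept by long-resident Kupffer cells (-1.87 ± 0.55). The call of Timd4 was lost in 16 alternatives, among them those without Control library 2, 3, 6, 7 or 8, Cirrhosis library 1 or 6, and Cirrhosis-PTH library 2, 3, 5 or 6, and that of C1qb without Control library 2 and without Cirrhosis-PTH libraries 3 and 6.

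Of 16 neutrophil genes, 3 were higher and 0 lower, with a median of 1.38 (15 higher in Cirrhosis, median 3.84), and 0 were called without Cirrhosis-PTH libraries 3 and 6.

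Genes for antigen presentation were raised in part. Of 21 MHC class II and dendritic cell genes, 10 were higher and 0 lower, with a median of 0.73 (16 higher in Cirrhosis, median 1.37). Cd74, the invariant chain of MHC class II, lay at 28 to 51.7 (median 41.4) CPM in Control and 56.7 to 98.9 (median 67.8) in Cirrhosis-PTH, and Irf8, a transcription factor of dendritic cells and monocytes, at 4.55 to 7.12 (median 5.32) and 9.51 to 15 (median 10.6). Neither gene overlapped between the groups, and the differences were 0.74 ± 0.13 (SE, adjusted p = 0.0012) and 0.99 ± 0.15 (SE, adjusted p = 0.00023). Of the 21, 4 were higher without Cirrhosis-PTH libraries 3 and 6. B and plasma cell genes gave 6 higher and 0 lower of 23 (median 0.70), with Cd22, a B cell receptor inhibitor, at 0.70 ± 0.17 (SE, adjusted p = 0.011), and 1 higher without Cirrhosis-PTH libraries 3 and 6. T and natural killer cell genes gave 2 higher and 0 lower of 30, a share of 6.7% that is near the 6.34% over all genes. Ncr1, the natural killer receptor NKp46, had no count in any Control library and 0.275 to 0.84 (median 0.451) CPM in Cirrhosis-PTH, at least 61.1-fold higher against a floor of 3 counts over the Control group (adjusted p = 5.7e-06). It stood at 0.209 to 0.472 (median 0.40) CPM in Cirrhosis. The other, Lck, a T cell kinase, changed by 1.03 ± 0.29 (SE, adjusted p = 0.031), and its call was lost without Control library 1, 3 or 8 or Cirrhosis-PTH library 3 or 6. Of 37 cytokine, chemokine and adhesion genes, 7 were higher and 0 lower (32 higher in Cirrhosis), and 2 without Cirrhosis-PTH libraries 3 and 6. They included Cx3cl1, the ligand of Cx3cr1 (1.66 ± 0.29 SE, adjusted p = 0.00089), and Tnfaip3, an inhibitor of NF-kB signalling (0.94 ± 0.18 SE, adjusted p = 0.0023).

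Of 36 interferon-stimulated genes, 11 were higher and 0 lower, with a median of 0.38 (26 higher and 1 lower in Cirrhosis, median 0.63), and 10 were higher without Cirrhosis-PTH libraries 3 and 6. Oas1a and Oas1g encode 2'-5' oligoadenylate synthetases, which sense double-stranded RNA. Oas1a lay at 1.59 to 1.81 (median 1.68) CPM in Control, 3.28 to 4.22 (median 3.95) in Cirrhosis-PTH and 4.83 to 9.86 (median 8.14) in Cirrhosis, and Oas1g at 0.705 to 1.11 (median 0.898), 1.66 to 2.02 (median 1.81) and 2.16 to 4.05 (median 3.25). For both, the 3 groups were ordered without overlap from Control to Cirrhosis. The differences from Control were 1.17 ± 0.15 (SE, adjusted p = 4.8e-05) and 1.03 ± 0.16 (SE, adjusted p = 0.00032). They are closely related paralogs, and how the authors' counting divided reads between them is not stated. Promoters of such genes often hold an interferon-stimulated response element. A simple form of it (TTTC, any 2 bases, then TTTC, on either strand, matches may overlap) was found in 15 of the 26 listed genes with a RefSeq promoter (57.7%), against 3.99% of all 27025 genes with one and 3.44% of all 32851 promoters of the same length. The promoters of the 2 genes are shown because they rose together, from 250 bases before the start site to 50 after it, 5′ to 3′ on the gene's strand (minus), with the matches in capitals (GRCm38.p6, RefSeq).
Oas1a, chr5:120907476-120907775: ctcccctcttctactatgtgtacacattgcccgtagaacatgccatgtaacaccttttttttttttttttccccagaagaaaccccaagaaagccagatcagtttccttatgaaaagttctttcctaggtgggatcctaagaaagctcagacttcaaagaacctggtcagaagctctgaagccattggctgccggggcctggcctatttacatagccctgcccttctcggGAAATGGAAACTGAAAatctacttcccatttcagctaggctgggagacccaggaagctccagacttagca
Oas1g, chr5:120887564-120887863: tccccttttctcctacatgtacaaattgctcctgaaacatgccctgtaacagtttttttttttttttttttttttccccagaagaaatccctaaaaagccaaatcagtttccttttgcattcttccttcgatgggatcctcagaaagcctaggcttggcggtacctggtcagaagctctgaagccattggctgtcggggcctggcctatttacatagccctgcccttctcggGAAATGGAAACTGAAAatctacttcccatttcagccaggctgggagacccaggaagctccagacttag
Both hold 2 overlapping matches close to the start site, written here on the opposite strand as GAAA. Most listed genes with a match were not called, among them Isg15 (0.20, adjusted p = 0.77) and Rsad2 (0.54, adjusted p = 0.19). Oas3, also with a match, was higher (1.15, adjusted p = 0.00057). Isg15, Rsad2 and Oas3 were named after their values were seen. A match is a description of the letters and no evidence that a factor bound there.

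Markers of the liver's covering were higher in part, and fewer of those of ducts and vessels. Of 14 mesothelial genes, which mark the cells of the liver capsule, 7 were higher and 0 lower, with a median of 1.99, and 5 were higher and 1 lower in Cirrhosis (median 0.77). Wt1, the transcription factor that marks mesothelium, lay at 0.223 to 1.54 (median 0.587) CPM in Control, 2.04 to 8.01 (median 3.05) in Cirrhosis-PTH and 1.98 to 5.86 (median 4.17) in Cirrhosis, without overlap between Control and Cirrhosis-PTH (2.41 ± 0.45 SE, adjusted p = 0.0023). Aldh1a2, which makes retinoic acid in mesothelium, changed by 2.31 ± 0.53 (SE, adjusted p = 0.0084). The mean level of the list was highest in Control libraries 7 and 8 among Controls and in library 3 among Cirrhosis-PTH, and only 1 member was higher without Cirrhosis-PTH libraries 3 and 6 (11 without Control libraries 7 and 8). Its summed level was 178 to 231 CPM in Control and 186 to 289 CPM in Cirrhosis-PTH, ranges that overlapped. In Cirrhosis the sum was 290 to 717 CPM, above both, although the median log2 difference of the members was smaller there than in Cirrhosis-PTH. By members called, mesothelial and matrix genes were both higher in Cirrhosis-PTH, and the part of the first in the second was not tested. Of 25 cholangiocyte and ductular genes, 6 were higher and 0 lower, with a median of 0.81 (17 higher in Cirrhosis, median 1.72), while their summed level was 1076 to 1286 CPM (median 1141) in Control and 1018 to 1159 CPM (median 1077) in Cirrhosis-PTH. Krt19, a keratin of bile ducts, lay at 0.139 to 0.837 (median 0.363) CPM in Control and 0.667 to 3.78 (median 1.2) in Cirrhosis-PTH (2.05 ± 0.42 SE, adjusted p = 0.0038), and its call was lost without Cirrhosis-PTH libraries 3 and 6, when 1 of the 25 was higher. Capillary and large vessel endothelial genes gave 4 higher of 20 (median 0.48), and 1 without Cirrhosis-PTH libraries 3 and 6. Cd34, which hepatic sinusoids gain as they become capillary-like, lay at 0.818 to 2.3 (median 1.23) CPM in Control and 2.87 to 8.83 (median 3.44) in Cirrhosis-PTH, with no overlap (1.76 ± 0.30 SE, adjusted p = 0.00082). Of 28 sinusoidal endothelial genes, 2 were higher, a share of 7.1% that is near the 6.34% over all genes. These were Thbd, thrombomodulin (0.80 ± 0.19, not called without Cirrhosis-PTH libraries 3 and 6), and Wnt9b, a Wnt ligand made around the central vein (1.24 ± 0.22 SE, adjusted p = 0.00085), which lay at 0.588 to 1.44 (median 1.21) CPM in Control and 1.82 to 3.52 (median 2.69) in Cirrhosis-PTH without overlap.

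**Figure D3:**
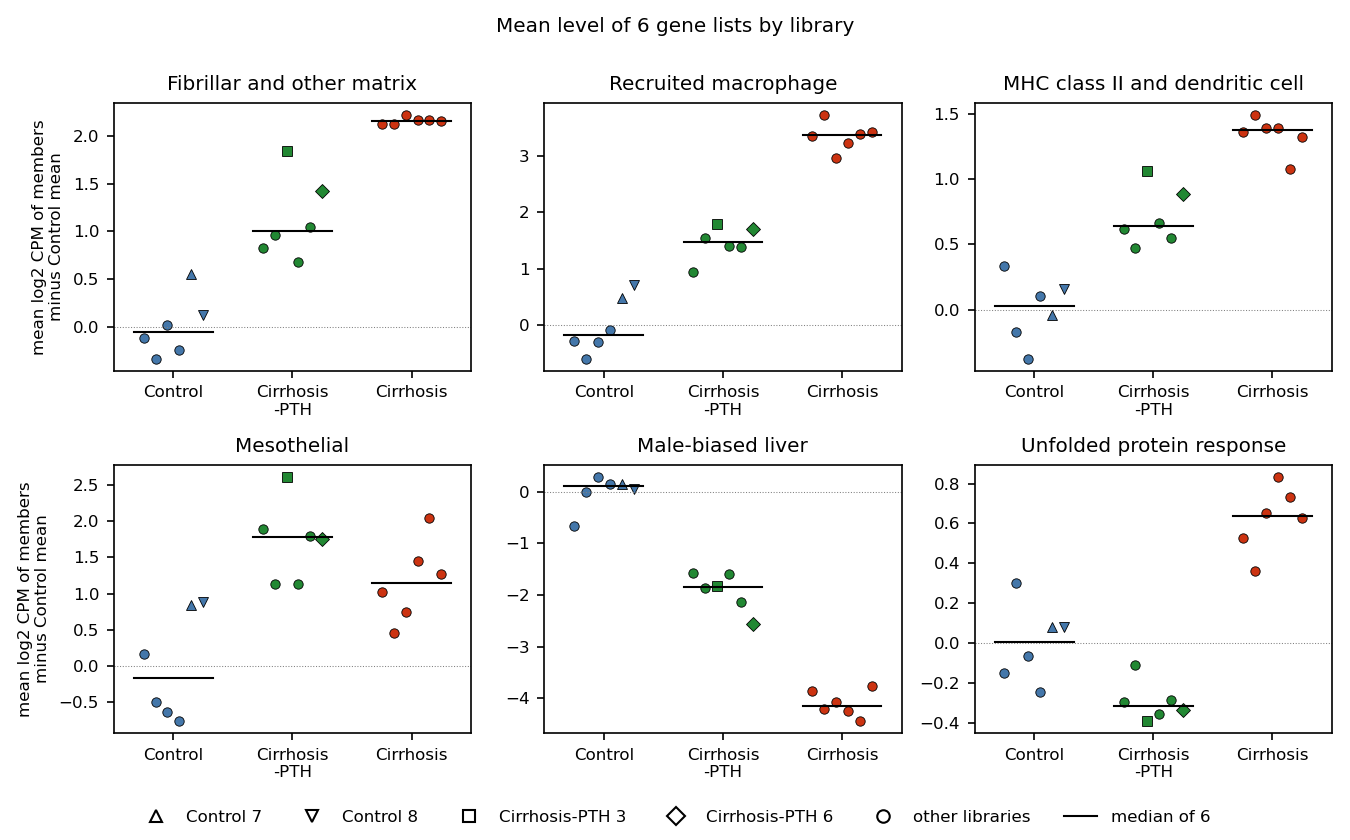
Mean log2 CPM of the members of 6 gene lists in each library, minus the mean of the Control libraries (y axis), with the median of 6 as a line. Cirrhosis-PTH lies above all Control libraries for matrix, macrophage, MHC class II and mesothelial genes and below them for male-biased genes, while for the unfolded protein response it overlaps the lower Control libraries and Cirrhosis lies above both.

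Genes that male liver expresses more than female liver stayed low. Their sex bias is set by the pulses of growth hormone that male mice release. Of 26 tested, 15 were lower and 0 higher, with a median of -0.97, against a background of 2.48% lower, and 26 were lower in Cirrhosis (median -3.34). Leaving out Cirrhosis-PTH libraries 3 and 6 gave 12 lower. Susd4, which encodes a complement regulator (ENSMUSG00000038576, GRCm38 chromosome 1, 182763860 to 182896591), lay at 22.3 to 46 (median 34) CPM in Control, 0.524 to 2.95 (median 1.06) in Cirrhosis-PTH and 0.245 to 0.843 (median 0.378) in Cirrhosis (-4.82 ± 0.39 SE, adjusted p = 4.4e-06). Hsd3b5, a steroid-reducing enzyme of male liver, lay at 84.8 to 181 (median 109.9) CPM in Control, 3.31 to 13.2 (median 7.08) in Cirrhosis-PTH and 0.0776 to 0.349 (median 0.146) in Cirrhosis. The difference from Control was -4.05 ± 0.36 (SE, adjusted p = 8.2e-06) in Cirrhosis-PTH and -9.42 ± 0.49 in Cirrhosis. For both genes Cirrhosis-PTH lay far below Control, and for Hsd3b5 it also lay above Cirrhosis in every library. Of the major urinary protein genes, which code for pheromone carriers, Mup9, Mup11, Mup1, Mup8, Mup17 and Mup15 were among the 8 largest falls, with log2 differences of -4.35, -3.84, -3.81, -3.8, -3.69 and -3.42. Mup12, Mup7 and Mup13 were among the largest losses in CPM (-2.69, -3.38 and -2.9). These genes are near-identical copies on chromosome 4, so the value of any 1 of them is uncertain. The calls of Mup17 and Mup12 were lost without Cirrhosis-PTH libraries 3 and 6, and Mup17 stood at -4.39 without Cirrhosis-PTH library 1. With replicate number as a block in the fit, the calls of Mup9, Mup15, Mup17 and Mup12 were lost. Of 25 listed genes with higher expression in female liver, 18 were tested. Of these, 4 were higher (22.2%, against 6.34% of all genes) and 0 lower, with a median of 1.17. The others, Cyp2b13, Cyp3a16, Sult2a1, Sult2a2, Sult2a5, Hao2 and A1bg, had too few counts to be tested, so the median does not cover them. Nipal1, a magnesium transporter, lay at 0.33 to 2.17 (median 1.16) CPM in Control and 3.5 to 11.2 (median 7.56) in Cirrhosis-PTH, with no overlap (2.6 ± 0.42 SE, adjusted p = 0.00082), and Atp6v0d2, a proton pump subunit, changed by 1.52 ± 0.27 (SE, adjusted p = 0.0013). The other called members, named after their values were seen, were Cyp2b9 (4.48 ± 1.06) and Prom1 (1.02 ± 0.28). Of 15 genes of the growth hormone axis itself, edgeR called 0, with 5 at an unadjusted p under 0.05, and DESeq2 called 1.

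Genes of lipid and bile acid metabolism were lower in a few cases, some of them also on the male-biased list. Of 24 fatty acid synthesis genes, 2 were lower (8.3%, against 2.48% of all genes) and 1 higher (4.2%, against 6.34%), with a median of 0.01. Of 20 lipid droplet genes, 2 were lower (10.0%) and 1 higher (5.0%), with a median of -0.11. Fitm1, which helps to bud lipid droplets, lay at 7.87 to 13.5 (median 9.27) CPM in Control, 0.0993 to 0.802 (median 0.312) in Cirrhosis-PTH and 0.0597 to 0.145 (median 0.119) in Cirrhosis (-4.81 ± 0.36 SE, adjusted p = 2.3e-07). Elovl3, a fatty acid elongase and also male-biased, lay at 28.7 to 54.7 (median 43.1) CPM in Control, 8.96 to 17.9 (median 12.2) in Cirrhosis-PTH and 0.504 to 1.03 (median 0.783) in Cirrhosis (-1.73 ± 0.20 SE, adjusted p = 3.4e-05). Mlxipl, the glucose-sensing factor ChREBP that drives lipid synthesis, changed by -0.58 ± 0.11 (SE, adjusted p = 0.0012). Of 16 bile acid synthesis genes, 4 were lower and 1 higher. Cyp7b1, an oxysterol hydroxylase and also male-biased, lay at 79.5 to 234 (median 209) CPM in Control, 20.5 to 75.5 (median 40.9) in Cirrhosis-PTH and 7.95 to 13.1 (median 9.78) in Cirrhosis (-2.07 ± 0.29 SE, adjusted p = 0.00026). The member higher was Cyp39a1, another oxysterol hydroxylase (1.12 ± 0.26 SE, adjusted p = 0.0097), whose call was lost without Cirrhosis-PTH libraries 3 and 6. Cyp7a1, whose enzyme limits the rate of that synthesis, overlapped widely, at 88.2 to 243 (median 183) CPM in Control and 128 to 346 (median 205) in Cirrhosis-PTH (0.33 ± 0.54 SE, adjusted p = 0.78). Of 24 genes of bile acid transport and sensing, 4 were lower and 2 higher. The uptake carrier Slco1a1, also male-biased, lay at 134 to 309.6 (median 260.1) CPM in Control and 53.7 to 87.6 (median 76.9) in Cirrhosis-PTH (-1.73 ± 0.26 SE, adjusted p = 0.00046). Slc10a2, the bile acid transporter of ileum and bile ducts, lay at 3.82 to 6.01 (median 5.7) and 7.17 to 17.3 (median 13.2) CPM (1.22 ± 0.18 SE, adjusted p = 0.00023), and neither carrier overlapped between the groups. Of 23 hepatocyte transcription factors, 6 were lower and 0 higher, with a median of -0.24 (19 lower in Cirrhosis, median -0.85). They included Foxa1, a pioneer factor of liver (-1.0 ± 0.19 SE, adjusted p = 0.0021), and Creb3l3, which controls lipid genes (-0.30 ± 0.07 SE, adjusted p = 0.005). Without Cirrhosis-PTH libraries 3 and 6, 1 of the 23 was lower, and Creb3l3 was not called.

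Pericentral genes, the part of the lobule that CCl4 destroys, were mostly not called, but a larger share was lower than among all genes. Of 28 tested, 6 were lower (21.4%, against 2.48% of all genes) and 3 higher (10.7%, against 6.34%), with a median of -0.16. In Cirrhosis, 22 were lower and 1 higher (median -1.46). Cyp2e1, the cytochrome that activates CCl4, lay at 2844 to 5366 (median 4215) CPM in Control, 2693 to 3764 (median 3045) in Cirrhosis-PTH and 150.5 to 442 (median 345) in Cirrhosis, a difference from Control of -0.39 ± 0.20 (SE, adjusted p = 0.26). Glul, glutamine synthetase, lay at 519.8 to 775 (median 710.1), 309 to 506 (median 462) and 53 to 70.9 (median 59.9) CPM, with no overlap between Control and Cirrhosis-PTH (-0.63 ± 0.11 SE, adjusted p = 0.00086). Oat, ornithine aminotransferase, lay at 404 to 702 (median 492), 125 to 249 (median 158) and 17.6 to 28.9 (median 22.3) CPM, and Lhpp, a phosphatase, at 28.1 to 46.2 (median 35.3), 9.53 to 14.7 (median 11.2) and 1.07 to 2.59 (median 1.8) CPM. Both kept the 3 groups apart in every library, with differences from Control of -1.58 ± 0.17 (SE, adjusted p = 1.1e-05) and -1.62 ± 0.18 (SE, adjusted p = 1.3e-05). Slc1a2, a glutamate transporter, changed by -0.61 ± 0.18 (SE, adjusted p = 0.046), against -9.08 in Cirrhosis, and its call was lost in 17 alternatives, among them those without Control library 2, 3, 6, 7 or 8, Cirrhosis library 5 or 6, or any of Cirrhosis-PTH libraries 1 to 5. Without Cirrhosis-PTH libraries 3 and 6, 3 of the 28 were lower and 0 higher (DESeq2 called 4 higher with all libraries). Of 23 periportal genes, 1 was lower and 0 higher, A1cf, an RNA-binding editing cofactor (-0.37 ± 0.10 SE, adjusted p = 0.021), and its call was lost without Control library 6 or Cirrhosis-PTH library 6.

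**Figure D4:**
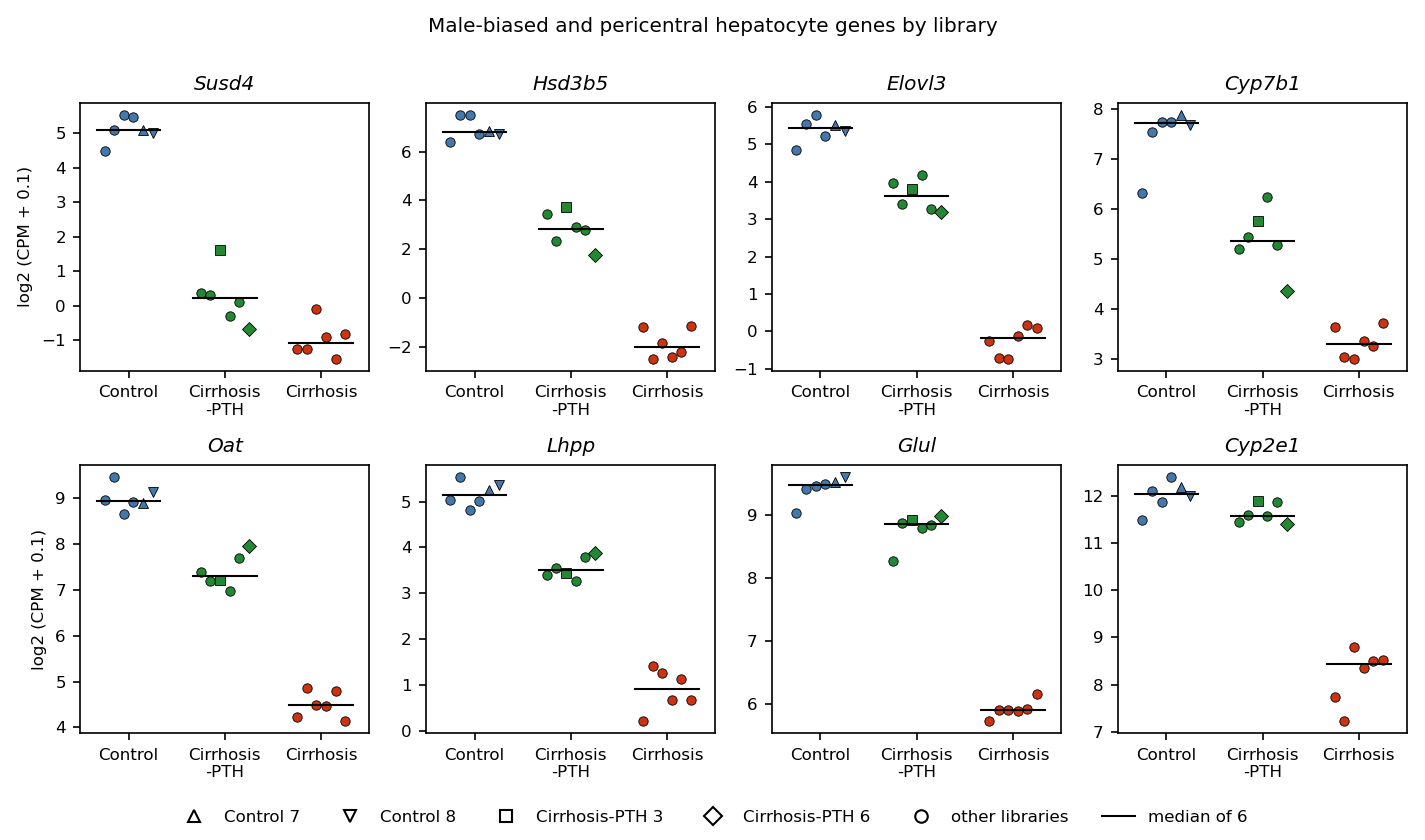
Level of 4 male-biased genes (top) and 4 pericentral genes (bottom), as log2 of CPM plus 0.1 (y axis), in each library by group, with the median of 6 as a line. Susd4, Hsd3b5, Elovl3, Cyp7b1, Oat, Lhpp and Glul lie below all Control libraries in Cirrhosis-PTH, and Cyp2e1 overlaps Control there while it is low in Cirrhosis.

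Xenobiotic genes moved in both directions. Of 42 cytochrome P450 genes of families 1 to 3, 5 were higher and 4 lower, with a median of -0.06 (29 lower in Cirrhosis). These shares were 11.9% and 9.5%, against 6.34% and 2.48% of all genes. Cyp3a11, the main drug-oxidising cytochrome induced through PXR, lay at 2151 to 3030.2 (median 2437) CPM in Control, 3102 to 3568 (median 3418) in Cirrhosis-PTH and 1405 to 2338 (median 1668) in Cirrhosis. All 6 Cirrhosis-PTH libraries lay above all Control libraries (0.44 ± 0.11 SE, adjusted p = 0.018), while the difference in Cirrhosis was -0.51. That call was lost without Control libraries 7 and 8 and without Cirrhosis-PTH libraries 3 and 6. Cyp3a13, a related enzyme, lay at 102 to 141 (median 119) CPM in Control and 118 to 197 (median 186) in Cirrhosis-PTH (0.57 ± 0.11 SE, adjusted p = 0.0025). On the lower side, Cyp2u1, a long-chain fatty acid hydroxylase, changed by -1.62 ± 0.25 (SE, adjusted p = 0.00065), and Cyp2c38 by -1.31 ± 0.22 (SE, adjusted p = 0.00089). Of 47 conjugating enzymes, 5 were lower (10.6%) and 1 higher (2.1%). The glutathione transferases Gstp1 and Gstp2 changed by -0.87 ± 0.19 (SE, adjusted p = 0.0049) and -1.09 ± 0.20 (SE, adjusted p = 0.0024), and as near-identical neighbours their reads may have been shared. Cyp26a1, which breaks down retinoic acid and belongs to a family outside that list (ENSMUSG00000024987, GRCm38 chromosome 19, 37697798 to 37701536), lay at 2.27 to 5.72 (median 3.88) CPM in Control, 17.5 to 41.4 (median 30.8) in Cirrhosis-PTH and 1.06 to 4.09 (median 2.96) in Cirrhosis. Every Cirrhosis-PTH library was above every library of both other groups. The difference from Control was 2.97 ± 0.34 (SE, adjusted p = 4.6e-05) in Cirrhosis-PTH and -0.41 ± 0.32 in Cirrhosis, and the call was kept under every alternative run. Of 34 NRF2 target and glutathione genes, 3 were higher and 2 lower (19 higher in Cirrhosis), with a median of -0.03. These shares were 8.8% and 5.9%, against 6.34% and 2.48% of all genes. Gpx3, the secreted glutathione peroxidase, lay at 1.49 to 5.88 (median 2.78) CPM in Control and 6.75 to 22.9 (median 10.4) in Cirrhosis-PTH without overlap (2.05 ± 0.33 SE, adjusted p = 0.00075).

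Chaperones of the endoplasmic reticulum (ER) lay below Control in part, whereas they were raised in Cirrhosis. Of 26 genes of the unfolded protein response, 7 were lower and 0 higher, with a median of -0.31, and in Cirrhosis 18 were higher and 1 lower, with a median of 0.43. Pdia6, a disulfide isomerase of the ER, lay at 68.4 to 116 (median 89.1) CPM in Control, 55.5 to 65.2 (median 61.6) in Cirrhosis-PTH and 115 to 157 (median 132) in Cirrhosis. Ern1, which encodes the ER stress sensor IRE1, lay at 44.2 to 72.3 (median 61.1), 34.1 to 43.5 (median 42.3) and 56.6 to 100.1 (median 75.6) CPM. In both genes no Cirrhosis-PTH library reached the lowest Control library, and the differences were -0.52 ± 0.11 (SE, adjusted p = 0.0035) and -0.55 ± 0.13 (SE, adjusted p = 0.012). Calr, the ER lectin chaperone calreticulin (named after its value was seen), lay at 226 to 456 (median 351) CPM in Control and 214 to 272 (median 230.3) in Cirrhosis-PTH and overlapped (-0.56 ± 0.14 SE, adjusted p = 0.018). In Cirrhosis, Calr lay at 337 to 428 CPM, inside the Control range. Hspa5, the chaperone BiP, did not pass (-0.27 ± 0.12 SE, adjusted p = 0.19), at 208 to 355 (median 269) CPM in Control and 205 to 249.98 (median 224) in Cirrhosis-PTH, against 588 to 998 (median 838) in Cirrhosis. Without Control libraries 7 and 8, 2 of the 26 were lower, as without Cirrhosis-PTH libraries 3 and 6, and DESeq2 called 12. An ER stress element, CCAAT, any 9 bases, then CCACG, on either strand, was found in 10 of the 22 listed genes with a RefSeq promoter (45.5%), against 0.137% of all 27025 genes with one and 0.119% of all 32851 promoters. Promoters of 3 of these genes are shown because they hold the element, 5′ to 3′ on the gene's strand with the match in capitals (GRCm38.p6, RefSeq, plus strand for Pdia6 and Hspa5, minus strand for Calr).
Pdia6, chr12:17266339-17266638: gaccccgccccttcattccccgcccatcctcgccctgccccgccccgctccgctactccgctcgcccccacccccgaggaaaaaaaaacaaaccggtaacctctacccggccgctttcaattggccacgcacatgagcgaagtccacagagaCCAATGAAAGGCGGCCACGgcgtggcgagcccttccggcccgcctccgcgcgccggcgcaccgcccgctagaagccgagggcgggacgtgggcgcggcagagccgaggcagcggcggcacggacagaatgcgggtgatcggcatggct
Calr, chr8:84846882-84847181: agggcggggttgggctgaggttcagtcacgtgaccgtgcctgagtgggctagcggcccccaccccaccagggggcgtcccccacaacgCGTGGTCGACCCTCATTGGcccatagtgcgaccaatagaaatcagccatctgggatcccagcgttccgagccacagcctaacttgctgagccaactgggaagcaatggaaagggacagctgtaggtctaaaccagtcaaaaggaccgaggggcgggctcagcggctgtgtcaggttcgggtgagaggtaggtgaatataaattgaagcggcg
Hspa5, chr2:34771840-34772139: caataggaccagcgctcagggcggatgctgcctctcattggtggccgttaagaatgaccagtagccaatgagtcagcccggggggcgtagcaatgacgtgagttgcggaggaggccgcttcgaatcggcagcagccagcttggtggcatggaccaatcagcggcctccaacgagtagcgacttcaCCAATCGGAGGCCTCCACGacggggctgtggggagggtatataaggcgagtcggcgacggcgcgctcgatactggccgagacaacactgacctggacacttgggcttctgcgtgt
Pdia6 and Calr were called lower and Hspa5 was not, and all 3 windows hold 1 match, in Calr on the opposite strand.

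Of 29 genes of the integrated stress response, 4 were lower and 1 higher, with a median of -0.12 (23 higher in Cirrhosis, median 1.19). Asns, asparagine synthetase, lay at 1.39 to 11.3 (median 3.78) CPM in Control, 0.50 to 2.51 (median 0.622) in Cirrhosis-PTH and 4.26 to 10.6 (median 7.78) in Cirrhosis. Its Control and Cirrhosis-PTH libraries overlapped only through Cirrhosis-PTH library 6, at 2.51 CPM, and the difference was -2.43 ± 0.51 (SE, adjusted p = 0.006). Atf3, a transcription factor induced by many stresses, was the member higher, at 0.186 to 0.679 (median 0.418) CPM in Control, 1.1 to 2.1 (median 1.45) in Cirrhosis-PTH and 12.9 to 49.4 (median 34.5) in Cirrhosis (1.73 ± 0.34 SE, adjusted p = 0.0035). Of 22 immediate early genes, 3 were higher and 1 lower (18 higher in Cirrhosis). The member lower was Egr1, a growth factor-induced transcription factor, at 3.76 to 23.5 (median 13.8) CPM in Control and 2.82 to 5.26 (median 3.68) in Cirrhosis-PTH (-1.76 ± 0.39 SE, adjusted p = 0.0086). Of 18 heat shock protein genes, edgeR and DESeq2 called 0, with 2 at an unadjusted p under 0.05, and 12 were higher in Cirrhosis. Of 26 p53 targets, 4 were higher and 1 lower (19 higher in Cirrhosis), shares of 15.4% and 3.8% against 6.34% and 2.48% of all genes. Cdkn1a, the cell cycle inhibitor p21, lay at 0.457 to 0.908 (median 0.693) CPM in Control, 0.753 to 2.1 (median 1.26) in Cirrhosis-PTH and 17.8 to 27.5 (median 21.2) in Cirrhosis (0.93 ± 0.25 SE, adjusted p = 0.024), and the call was lost without Control library 1 or 3 or Cirrhosis-PTH library 1 or 6.

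Of 50 cell cycle genes, 6 were higher (12.0%, against 6.34% of all genes) and 0 lower, with a median of 0.47 (37 higher in Cirrhosis, median 1.24). Cdkn2c, the inhibitor p18 of CDK4 and CDK6, lay at 1.58 to 3.46 (median 2.49) CPM in Control, 5.78 to 7.13 (median 6.38) in Cirrhosis-PTH and 3.26 to 4.55 (median 3.62) in Cirrhosis. Its Cirrhosis-PTH libraries lay above all libraries of both other groups (1.34 ± 0.15 SE, adjusted p = 1.2e-05). Cdk1, the kinase of mitosis, lay at 0.355 to 0.933 (median 0.475) CPM in Control and 1.44 to 2.52 (median 1.6) in Cirrhosis-PTH with no overlap (1.55 ± 0.24 SE, adjusted p = 0.00029), and Mki67, a marker of dividing cells, did not pass (0.52 ± 0.26 SE, adjusted p = 0.24). Without Control libraries 7 and 8 the Mki67 log2 fold change was 0.95 and called higher (adjusted p = 0.0198). Only 3 of the 50 were higher when Cirrhosis-PTH libraries 3 and 6 were left out. Of 30 fetal and tumour-linked liver genes, 13 were higher and 1 lower, with a median of 0.77 (24 higher in Cirrhosis, median 1.85), and 5 without Cirrhosis-PTH libraries 3 and 6. Golm1, a Golgi protein raised in liver disease, lay at 1.44 to 2.84 (median 2.14) CPM in Control and 3.58 to 6.45 (median 4.76) in Cirrhosis-PTH (1.2 ± 0.19 SE, adjusted p = 0.00032), while Afp, alpha-fetoprotein, did not pass (0.67 ± 0.28 SE, adjusted p = 0.15). Meg3, an imprinted noncoding RNA, lay at 0.471 to 2.98 (median 1.97) CPM in Control, 3.94 to 16.1 (median 11.9) in Cirrhosis-PTH and 1.59 to 5.12 (median 3.09) in Cirrhosis, without overlap between Control and Cirrhosis-PTH (2.46 ± 0.42 SE, adjusted p = 0.0013).

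**Figure D5:**
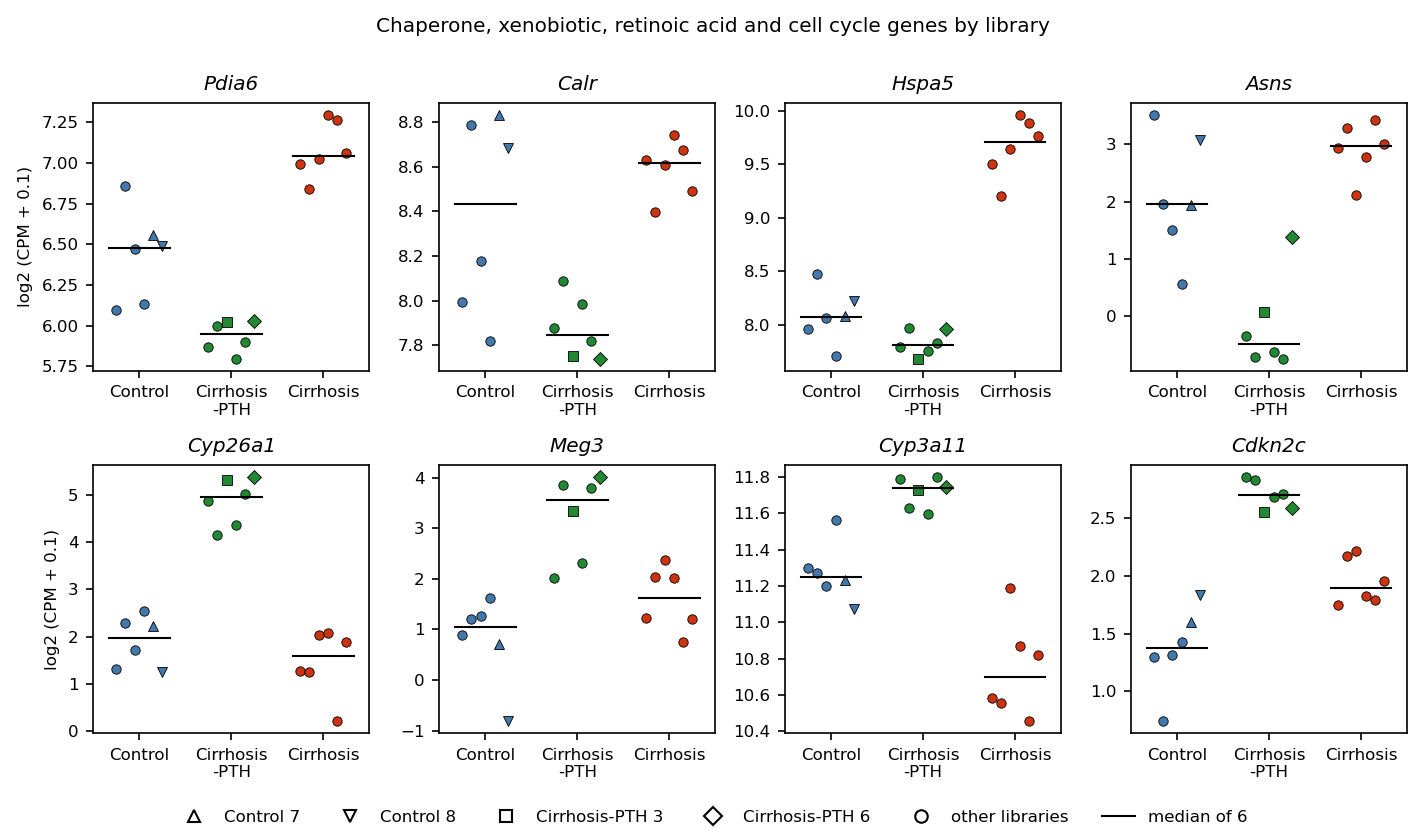
Level of 8 genes, as log2 of CPM plus 0.1 (y axis), in each library by group, with the median of 6 as a line. Pdia6 lies lower in Cirrhosis-PTH than in both other groups and Cyp26a1 and Cdkn2c lie higher in all 6 Cirrhosis-PTH libraries, Cyp3a11 lies above Control while Cirrhosis lies mostly below it, and Hspa5 overlaps Control.

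Among 2800 long noncoding RNA (lncRNA) genes tested, 81 were higher and 29 lower (3.93%), against 1223 and 443 of 14949 protein-coding genes (11.1%). Gm36161 had 1 Control library with a count, at 0.071 CPM, and 0.411 to 1.08 (median 0.70) CPM in Cirrhosis-PTH (adjusted p = 6.4e-06), with a log2 difference of 5.26 that was 8.99 without that library. A830036E02Rik had no count in Control and 0.27 to 1.27 (median 0.63) CPM in Cirrhosis-PTH, at least 90.5-fold higher against a floor of 3 counts over the group (adjusted p = 1.7e-05). Gm19619 rose by 1.15 ± 0.16 (SE, adjusted p = 0.00012). On the lower side, Snhg11, a small nucleolar RNA host gene, lay at 7.97 to 9.57 (median 8.48) CPM in Control, 1.41 to 3.55 (median 1.65) in Cirrhosis-PTH and 0.907 to 2.1 (median 1.67) in Cirrhosis (-2.1 ± 0.22 SE, adjusted p = 6.4e-06). Gm13775, which overlaps the pseudogene Mup-ps16 on chromosome 4, lay at 4.88 to 13.3 (median 10.1) CPM in Control and 0 to 0.369 (median 0.0385) in Cirrhosis-PTH and had no count in Cirrhosis (-6.81 ± 0.76 SE, adjusted p = 0.00026), and it was -7.92 without Cirrhosis-PTH library 2. Gm35696 and Gm14097 changed by -2.63 ± 0.38 (SE, adjusted p = 0.00016) and -1.35 ± 0.22 (SE, adjusted p = 0.0004). The strand used in counting is not stated, so reads of genes that overlap cannot be told apart. Besides these lncRNA genes, Ltbp2 overlaps D030025P21Rik in the annotation, Mmp12 overlaps Mmp1b, Hsd3b5 overlaps Zfp697, Oat and Lhpp overlap Fgfr2, Pdia6 overlaps Atp6v1c2, Fitm1 overlaps Gm15932 and Elovl3 overlaps Pitx3.

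Several large groups of hepatocyte genes that were lower in Cirrhosis had few or no called members in Cirrhosis-PTH. Of 37 genes of fatty acid oxidation and ketogenesis, edgeR called 0, with 7 at an unadjusted p under 0.05, and DESeq2 called 3 (27 lower and 3 higher in Cirrhosis). Of 46 genes of the urea cycle and amino acid catabolism, 1 was lower, Oat, and 0 were higher (39 lower in Cirrhosis), with a median of 0.06. Of 33 coagulation and complement genes, 2 were lower (6.1%, against 2.48% of all genes), and 27 were lower in Cirrhosis. At an unadjusted p under 0.05, 11 of the 33 were lower and 0 higher. Of 23 secreted plasma protein genes, 1 was lower (4.3%, with 18 lower in Cirrhosis), and 6 were lower and 0 higher at an unadjusted p under 0.05. Their log2 differences ran from -0.42 to -0.02, with a median of -0.18. Their summed level did not overlap, at 67884 to 82454 CPM in Control and 59681 to 65732 CPM in Cirrhosis-PTH. The values of Alb, -0.27 ± 0.14 (SE, adjusted p = 0.27), and of Ttr, transthyretin, -0.17 ± 0.11 (SE, adjusted p = 0.4), did not pass. Of 43 nuclear genes of oxidative phosphorylation, 4 were lower (9.3%, against 2.48% of all genes) and 0 higher, with a median of -0.11 (41 lower in Cirrhosis). At an unadjusted p under 0.05, 13 were lower and 0 higher. Without Cirrhosis-PTH libraries 3 and 6, 0 of the 43 were called lower. The 4 called with all libraries included the complex I subunits Ndufb10 (-0.50 ± 0.12 SE, adjusted p = 0.011) and Ndufb3 (-0.74 ± 0.19 SE, adjusted p = 0.017). Of the 13 protein genes encoded in mitochondria, 2 were lower, the cytochrome oxidase subunits mt-Co2 (-0.60 ± 0.16 SE, adjusted p = 0.017) and mt-Co3 (-0.50 ± 0.14 SE, adjusted p = 0.03), with a median of -0.71, 11 at an unadjusted p under 0.05, and 9 lower by DESeq2. Both calls were lost without Cirrhosis-PTH libraries 3 and 6, and that of mt-Co3 also without Control library 2, 6 or 7 or Cirrhosis-PTH library 3 or 6 alone. Cirrhosis-PTH library 6 had the lowest share of mitochondrially encoded counts outside ribosomal RNA loci, 0.805%, with the part of that share in the result not tested. Cytosolic ribosomal protein genes were not lower in Cirrhosis, where 15 of 36 were higher and 0 lower. In Cirrhosis-PTH edgeR and DESeq2 called 0 of them, with 4 higher and 0 lower at an unadjusted p under 0.05. Of 25 sterol synthesis genes, 3 were higher and 0 lower, with a median of 0.24, against 16 lower in Cirrhosis. Mvd, mevalonate diphosphate decarboxylase, lay at 1.2 to 2.94 (median 1.68) CPM in Control, 1.96 to 6.76 (median 4.49) in Cirrhosis-PTH and 2.41 to 5.01 (median 3.54) in Cirrhosis (1.28 ± 0.26 SE, adjusted p = 0.0028), and Srebf2, the main transcription factor of the pathway, changed by 0.38 ± 0.08 (SE, adjusted p = 0.0055), lost without Cirrhosis-PTH libraries 3 and 6.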

How the data were processed

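Total liver RNA, depleted of ribosomal RNA per the labels' protocols, was sequenced with 1 library per mouse. The deposited table held whole-number counts per gene, made by the authors before deposit, in 54752 rows for 18 libraries. Per the submitters' processing notes, the build was GRCm38 and the tools, given with no role, included Trim Galore, cutadapt 4.2, StringTie 2.1.5, Bowtie2, HISAT2 2.2.1 and Bowtie 1.3.1. The strand used, the annotation release and any filter are not given in the sources used here. Counts of 4 were found 15174 times and counts of 5 only 8989 times, so how much 1 read adds to a count is not known.

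Genes were filtered with filterByExpr, scaled by TMM, and tested in edgeR 4.0.16 (R 4.3.3) by its quasi-likelihood F-test with robust estimation in one fit of the 3 groups. P-values were adjusted by Benjamini-Hochberg over the 21914 genes, with a threshold of 0.05. Values are CPM on the scaled library sizes, SE is from the F statistic, and differences are log2 with Control as the base. P-values measure the spread between mice. Symbols and biotypes were taken from GENCODE M21 by Ensembl identifier (54723 matched). The procedure was also run on counts with known changes, simulated from the means and dispersions of the real fit. The outcome of that run is not given here. Alternatives included DESeq2 1.42.0, other scaling and filters, thinned counts and each library left out, and the one without Cirrhosis-PTH libraries 3 and 6 was added after seeing the data.

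The genes and lists were chosen with earlier results of these data known. The text names the 8 largest rises and falls among well-expressed genes without overlap, the 6 largest gains and losses in CPM, the 2 called members with the smallest p of each list, the 3 lncRNA genes with the smallest p in each direction, and reference genes. Other names are marked as chosen after their values were seen. Limits such as "at least 61.1-fold" use a floor of 3 counts over the group and cover counting error only.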

Additional observations from a re-analysis of the deposited data

Results flagged for a closer look

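Single libraries stood apart from the other 5 of their group in 26 of 264 tests (gap to the nearest library over the range, above Dixon's critical value for 6 libraries), and chance alone gives about 1 in 20. Control library 7 had the highest Col1a1 (38.79 CPM, nearest other library 11.75), Timp1 (1.145, nearest 0.1185), Fbn2 (0.2423, nearest 0.08929) and Tgfb2 (1.256, nearest 0.6374), and Control library 8 the highest Mt1, a metallothionein (103.4, nearest 37.01). Cirrhosis-PTH library 3 had the highest Susd4 (2.949, nearest 1.182), Irf8 (14.96, nearest 11.27) and Cd74 (98.89, nearest 72.36) and the lowest Cyp3a13 (118.2, nearest 180.5). Cirrhosis-PTH library 6 had the highest Asns (2.506, nearest 0.958) and Cdk1 (2.525, nearest 1.683).

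Control library 1 had the lowest Cyp7b1 (79.54 CPM, nearest 184.6) and Glul (519.8, nearest 680.2) and the highest Cyp39a1 (14.14, nearest 7.372), Pfkp, a phosphofructokinase (3.672, nearest 2.555), and Pdgfrb (12.34, nearest 10.0). Control library 6 had the highest Mup15 (6275, nearest 2281) and Gm36161 (0.07098, nearest 0) and the lowest Slc10a2 (3.823, nearest 5.293) and Wnt9b (0.5881, nearest 1.123). Control library 3 had the highest Serpina1e, an antitrypsin gene (6810, nearest 5446), and the lowest Cd36, a fatty acid carrier (18.38, nearest 27.55). Cirrhosis-PTH library 1 had the highest Mup7 (1008, nearest 419) and the lowest Glul (309.1, nearest 444.6). Cirrhosis-PTH library 2 had the highest Padi4, a neutrophil enzyme (1.589, nearest 0.549), and Gm13775 (0.3688, nearest 0.125).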

How the results depend on the processing

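Of 119 called genes named by the rule, 52 kept their call in every alternative, 67 lost it in at least 1 and 0 changed direction. Against 1932 genes called (1389 higher, 543 lower), a test against a fold of 1.5 called 428 (353 and 75) and the set without Cirrhosis-PTH libraries 3 and 6 called 847 (637 and 210). Of those 847, 809 were among the 1932. With each library left out the number lower was 334 to 611, with 334 without Control library 2 and 337 and 349 without Cirrhosis-PTH library 6 and 3. At least 2-fold higher (747) became 491 with the 12 libraries alone, 355 with a stricter filter, 352 against a fold of 1.5 and 356 without Cirrhosis-PTH libraries 3 and 6. At least 2-fold lower (158) became 255 by DESeq2, 87 with a stricter filter, 91 with the replicate block and 73 against a fold of 1.5. The cause of these changes was not tested. Control and Cirrhosis-PTH share 4 replicate numbers, and the deviations of same-numbered libraries correlated by -0.053 to 0.0125 over all genes. What the numbers stand for is not stated, and correlations over all genes cannot show whether same-numbered mice were handled together. A replicate block called 1354 genes (1109 higher, 245 lower), 81.9% of them higher against 71.9%, as against 81.2% without Control libraries 7 and 8 and 82.5% against a fold of 1.5. Of the named genes not called, 5 were called in some alternative: Timp1, Acta2, Clec4f, Mki67 and Mt1, the last without Control libraries 7 and 8 (adjusted p = 0.0392). Timp1 ranged from -0.0077 (without Control library 2) to 2.42 (without Control library 7). Adgre1 ranged from -0.060 to 0.195, and was also below 0 (Adgre1 log2 fold change) without Control library 3 (-0.0115) or 6 (-0.0292) or Cirrhosis-PTH library 1 (-0.00458) or 4 (-0.00653). Saa1, a serum amyloid, was 1.70 without Control libraries 7 and 8 and 1.29 with the replicate block. Genes at a few counts are limited by depth, with as few as 24.5 M counts outside ribosomal RNA loci in a library.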

Other observations

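Some genes outside the lists, chosen after their values were seen, were farther from Control in Cirrhosis-PTH than in Cirrhosis. Raet1d and Raet1e encode stress ligands of the natural killer receptor NKG2D. Raet1d lay at 8.06 to 12 (median 11.2) CPM in Control, 24.5 to 41.9 (median 32.8) in Cirrhosis-PTH and 10.5 to 18 (median 12.9) in Cirrhosis, and the log2 differences from Control were 1.63 ± 0.15 (SE, adjusted p = 4.6e-06) and 0.39 ± 0.15. Raet1e differed by 1.47 ± 0.18 (SE, adjusted p = 3.5e-05) and 0.34 ± 0.18. Between Cirrhosis-PTH and Cirrhosis the log2 differences were 1.24 ± 0.15 (SE, adjusted p = 1.7e-06) and 1.13 ± 0.18 (SE, adjusted p = 2.9e-05), and the libraries of Raet1d did not overlap. The 2 genes are related copies and may share reads.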
